A study of Mus musculus with 2 samples.

Results

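The DNA replication machinery was described here through 39 genes: the MCM helicase, the origin recognition complex, the factors that license and activate it, the catalytic polymerase subunits, the sliding clamp and its loader, the single-strand binding complex, the enzymes that join Okazaki fragments, and the enzymes that supply deoxynucleotides. The genes were taken by symbol, and all 39 were found among the 43346 mouse genes of the deposited tables. The tissue was the heart of mouse embryos (strain B6NCrl, a C57BL/6N line) at embryonic day 10.5, when the chambers are forming. A single group was measured in 2 libraries: replicate 1 pooled the hearts of 69 embryos and replicate 2 those of 51. Both pools mixed male and female embryos, and the labels name no engineered allele and no treatment. Each library was made from 10 ng of total RNA longer than 200 nt, to which ERCC spike-ins, synthetic RNAs of known amount, had been added. Expected counts totalled 45205713 in replicate 1 and 41070978 in replicate 2, and mouse genes took 43295923 and 39786163 of them. With 1 group there was no contrast of conditions, so no p-value was computed, and each mean is given with its SD over the 2 pools.

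Replication begins with licensing, when the origin recognition complex binds DNA in G1 and, with Cdc6 and Cdt1, loads a double ring of the MCM2-7 helicase. In S phase Cdc45 and the GINS complex join the ring and activate it, the polymerases copy both strands behind it, and PCNA, loaded by replication factor C, tethers them to DNA. Geminin, the product of Gmnn, binds Cdt1 after S phase has begun and so stops an origin from being licensed again. Many of these genes are transcribed from late G1 under E2F factors. Heart muscle cells of the early embryo still divide, unlike most of those of the adult.

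Promoter sequence was not used to choose the genes, and 1 short kind of word recurred in it. RefSeq promoter windows (GRCm38.p6, 250 bases before to 50 after the start site) were matched for 32 of the 39 genes. Of these, 5 had more than 1 start site, which made 39 windows; a gene was counted where any of its windows matched. Mcm4, Gmnn, Gins1, Gins2, Gins4, Pole and Rfc2 had no entry in the table. Of the 32 genes, 13 held at least 1 of the 8-letter words TTTCCCGC, TTTGGCGC, TTTCGCGC or TTTGCCGC, read on either strand, which are of the type that E2F factors bind. That was 40.6% of the genes, against 2.60% of the 27025 genes with windows of the same length in the table. Counted by window, 13 of 39 (33.3%) held a word, against 2.26% of 32851. The sequences that follow were chosen because they hold those words in the helicase and licensing genes. Each is 30 bases, 5′ to 3′ on the strand of its gene, with the first matching word in capitals.
Mcm3, chr1:20820275-20820304, minus strand: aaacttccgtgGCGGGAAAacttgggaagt
Mcm5, chr8:75109345-75109374, plus strand: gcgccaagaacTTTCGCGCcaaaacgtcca
Mcm6, chr1:128359797-128359826, minus strand: tggcgtatgctTTTGGCGCgaaaagtgcgt
Mcm7, chr5:138172030-138172059, minus strand: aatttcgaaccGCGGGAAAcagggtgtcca
Orc1, chr4:108579416-108579445, plus strand: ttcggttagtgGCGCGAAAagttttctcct
Cdc6, chr11:98908002-98908031, plus strand: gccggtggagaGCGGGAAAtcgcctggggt
Cdt1, chr8:122568035-122568064, plus strand: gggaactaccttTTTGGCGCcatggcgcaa

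The words are given here by role, with 2 to 6 matched genes in each, too few to rank the roles. They stood in 4 of 5 matched MCM genes (Mcm2 was without), in both matched licensing genes (Cdc6 and Cdt1), in both matched polymerase genes (Pola1 and Pold1) and in 2 of 6 origin recognition genes (Orc1 and Orc3). Gins3 was the 1 gene of 3 with the words among the helicase activators, Rfc3 the 1 of 5 in the clamp group, and Lig1 the 1 of 2 in Okazaki fragment joining. None of the 3 single-strand binding genes and none of the 4 nucleotide supply genes held a word. The word TTTCCCGC was found in 7 genes, TTTCGCGC in 6, TTTGGCGC in 5 and TTTGCCGC in 0. There were 19 matches in all, between 165 bases before and 39 bases after the start site. Of these, 5 lay within the last 100 bases before the start and 7 at or after it. A match is a run of letters and not a measured binding site, and its absence says only that these letters are not in these windows.

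Mcm5 and Mcm6 had overlapping words, in which a forward and a reverse match share their central bases. Their 250 bases before the start are given for this reason, with E2F-type words and the CCAAT box (read on either strand, so also as ATTGG) in capitals.
Mcm5, chr8:75109259-75109508, plus strand: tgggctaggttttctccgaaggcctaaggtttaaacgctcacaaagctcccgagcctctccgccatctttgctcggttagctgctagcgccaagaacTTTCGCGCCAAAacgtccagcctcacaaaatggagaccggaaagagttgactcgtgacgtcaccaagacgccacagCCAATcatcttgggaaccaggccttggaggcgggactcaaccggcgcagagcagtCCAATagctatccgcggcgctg
Mcm6, chr1:128359706-128359955, minus strand: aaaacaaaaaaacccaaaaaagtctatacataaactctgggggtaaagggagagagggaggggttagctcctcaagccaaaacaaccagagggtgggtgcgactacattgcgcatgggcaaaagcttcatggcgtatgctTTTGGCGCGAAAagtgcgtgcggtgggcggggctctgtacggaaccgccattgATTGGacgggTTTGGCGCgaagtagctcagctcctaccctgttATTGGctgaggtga

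The CCAAT box was found in 21 of 32 replication genes (65.6%), against 41.1% of all genes in the table. Other lists held it too, at 79.2% of matched mitosis genes, 61.5% of liver genes and 52.4% of sarcomere genes. The CHR letters of genes expressed late in the cell cycle (TTTGAA or TTCGAA) were found in 6 of 32 (18.8%), against 21.7% of all. In a list of 28 mitosis genes, of which 24 were matched, 1 held an E2F-type word (4.17%) and 19 held CHR letters (79.2%). The lists of heart muscle, red cell, liver, and trunk and foregut genes held no E2F-type word in 21, 11, 13 and 15 matched genes. A separate list of 48 other replication factors held the words in 10 of 40 matched genes (25%).

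**Figure D1:**
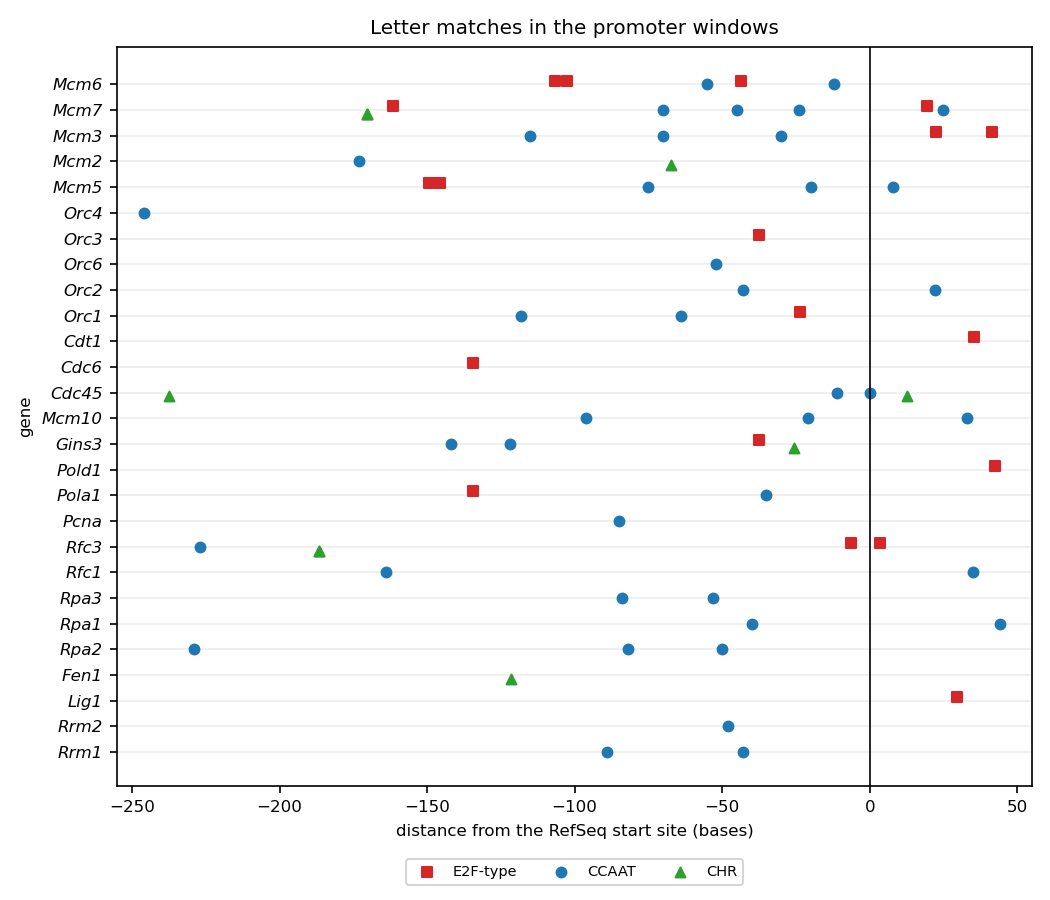
Matches of E2F-type words (squares), the CCAAT box (circles) and CHR letters (triangles) in the promoter windows of replication genes that hold at least 1 of them, by distance in bases from the RefSeq start site of the window (x axis; windows of genes with several start sites are drawn on 1 line); genes are ordered by role. The 19 E2F-type matches run from 165 bases before to 39 after the start, with 4 of the 5 matched MCM genes among the 13 genes that hold them.

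RNA levels of genes with and without the words overlapped. Genes with an E2F-type word had a median of 75.2 TPM (an abundance scaled to library total and transcript length, so that genes can be compared) over 13 genes, with a range of 10.9 to 201.8 TPM. The 19 genes whose windows lacked one had a median of 99.6 TPM and a range of 30.6 to 257.6 TPM, so the ranges overlapped over most of their length.

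All 39 replication genes were detected at 1 TPM or more in both pools, where 56.9% of 21461 nuclear protein-coding genes were. As a share of all TPM on nuclear genes that encode protein, they summed to 0.480% for replicate 1 and 0.419% for replicate 2 (0.450 ± 0.0432%, SD, n = 2). The median gene of the set stood at 89.2 TPM, and the mean levels ran from 10.9 TPM for Orc1 to 257.6 TPM for Rrm2. Among the 12218 detected protein-coding genes, Orc1 lay at percentile 34.1 and Rrm2 at percentile 95.7. In whole tissue, fewer cells of a type and less RNA per cell cannot be told apart, so these levels average cells that replicate DNA and cells that do not.

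**Figure D2:**
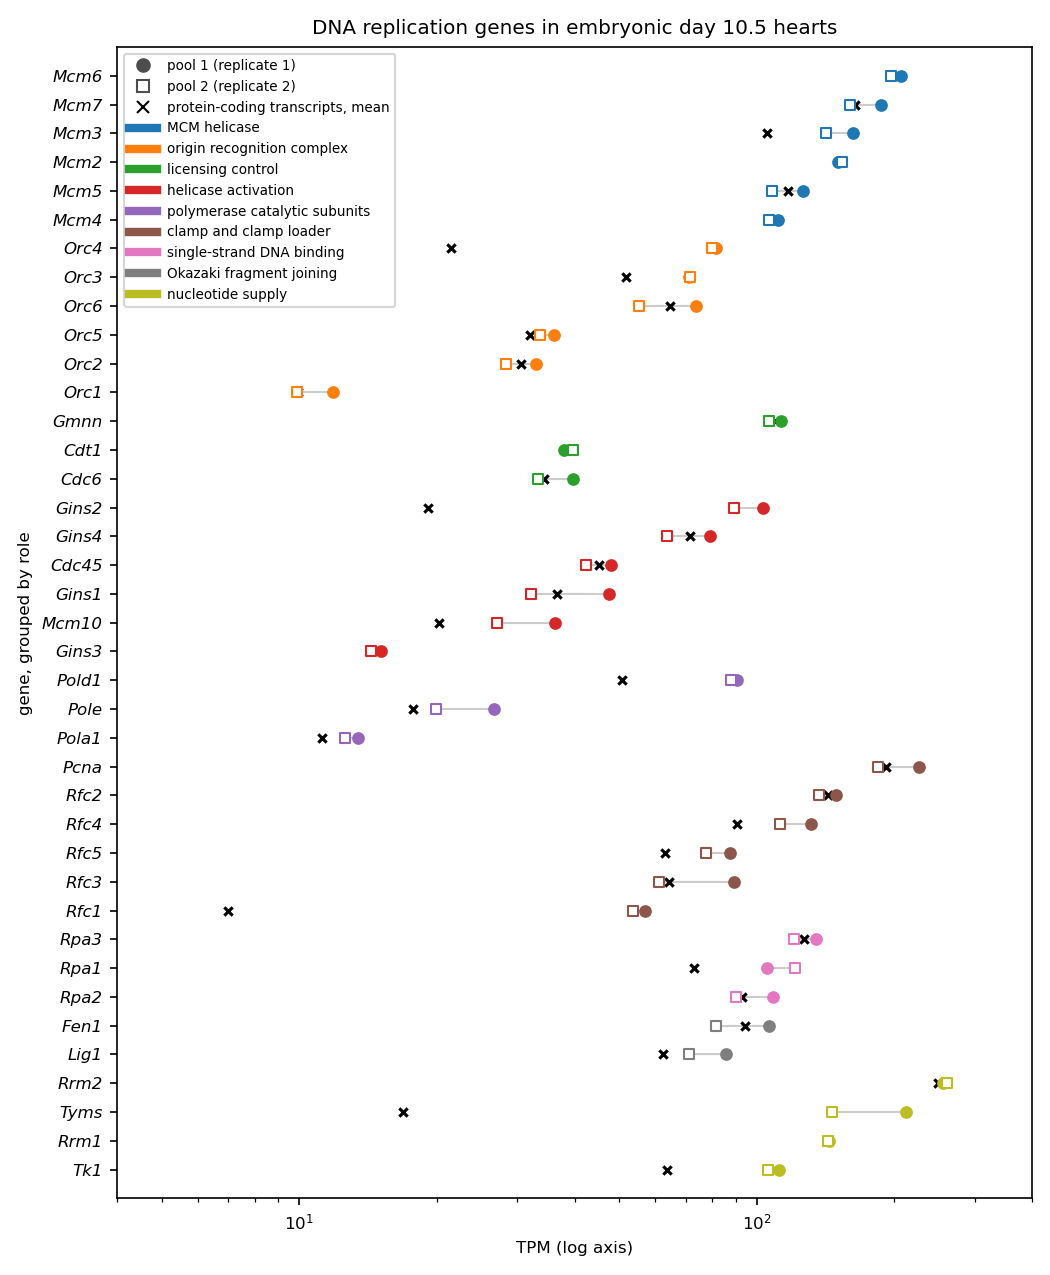
TPM (log axis) of the 39 replication genes, grouped and coloured by role: filled circles are replicate 1, open squares replicate 2, and crosses the mean TPM of protein-coding transcripts alone. The MCM genes lie together between 106 and 207 TPM, the origin recognition genes spread from 9.89 to 81.6 TPM, and the crosses of Orc4, Gins2, Tyms and Rfc1 lie far to the left of their circles.

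The 6 MCM genes encode the ring of the replicative helicase, and their RNAs stood within a narrow range of TPM. Mcm6 (ENSMUSG00000026355.7, chr1:128331590-128359664, minus strand, mm10 with GENCODE M21, as all gene coordinates here) was the highest, with 206.67 TPM in replicate 1 and 196.97 in replicate 2. Mcm7 had 187.34 and 159.92 TPM, and Mcm3 had 162.66 and 141.75 TPM. Mcm2 was nearly equal in the pools, with 150.39 and 153.41 TPM. Mcm5 had 126.49 and 108.05 TPM, and Mcm4 had 111.33 and 106.35 TPM. The highest subunit exceeded the lowest 1.86-fold in replicate 1 and 1.85-fold in replicate 2. A pair of genes is called separated here when the lower pool of one is above the higher pool of the other, and 12 of the 15 MCM pairs were. The neighbours Mcm7 and Mcm3, Mcm3 and Mcm2, and Mcm5 and Mcm4 were not separated. Mcm6, Mcm2, Mcm4 and Mcm5 drew at least 99.5% of their TPM from protein-coding transcripts in both pools. Mcm3 drew 68.1% and 70.7%, since short retained-intron models held the remainder.

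The origin recognition complex, which marks where helicases are loaded, spread more widely in TPM than the helicase. Orc1 (ENSMUSG00000028587.14, chr4:108579423-108614833, plus strand), the subunit whose protein is degraded and remade in each cell cycle in mammals, was the lowest of the 39 genes with 11.88 and 9.89 TPM. Orc2 had 32.87 and 28.31 TPM, and Orc5 had 36.06 and 33.55 TPM. Orc6 differed more between pools, at 73.67 and 55.37 TPM, and so was not separated from Orc3 at 70.98 and 71.45 TPM. Orc4 was listed highest at 81.64 and 79.81 TPM. The highest subunit exceeded the lowest 6.87-fold in replicate 1 and 8.07-fold in replicate 2, and 14 of 15 pairs were separated. Orc1 was lower than Orc2, its neighbour in level, by a log2 TPM ratio of -1.49 ± 0.03 (n = 2). The place of Orc4 at the top rested on transcripts that encode no protein: its protein-coding transcripts summed to 21.2 and 21.7 TPM, below those of every origin recognition gene but Orc1.

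Among the licensing factors, the inhibitor was more abundant than its target. Cdc6, the ATPase that works with the origin complex, had 39.66 and 33.28 TPM. Cdt1 (ENSMUSG00000006585.2, chr8:122568015-122573554, plus strand), which brings the MCM ring to the origin, had 37.84 and 39.67 TPM. Cdc6 and Cdt1 overlapped between pools. Gmnn, which encodes geminin, had 113.17 and 106.31 TPM, so that Cdt1 stood below it in both pools by a log2 TPM ratio of -1.50 ± 0.11 (n = 2). In expected counts, not divided by length, the ratio was -0.22, with 2406 and 2274 counts for Cdt1 and 2957 and 2505 for Gmnn. Cdc6 exceeded Orc1, a related ATPase, by a log2 TPM ratio of 1.74 ± 0.01. RNA levels say nothing of Cdt1 and geminin protein, which are both controlled by degradation.

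The helicase activators also spread widely in TPM. Cdc45, which joins the MCM ring and stays with it, had 47.95 and 42.42 TPM, and Mcm10, which acts after it in activation, had 36.3 and 27.04 TPM. Cdc45 lay below the ring subunit Mcm5 by a log2 TPM ratio of -1.37 ± 0.04. GINS is a complex of 4 subunits in equal number, and all 6 pairs of its genes were separated in TPM. Gins2 was listed at 103.12 and 89.17 TPM, Gins4 at 78.97 and 63.84, Gins1 at 47.51 and 32.16, and Gins3 at 15.08 and 14.38 TPM. The highest exceeded the lowest 6.84-fold and 6.20-fold. Counted from protein-coding transcripts alone, Gins2 had 19.9 and 18.2 TPM, next to Gins3 and not at the top, while Gins4, Gins1 and Gins3 kept their order in both pools.

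Of the catalytic polymerase subunits, Pola1 and Pole were among the lower genes of the set. Pola1 (ENSMUSG00000006678.6, chrX:93304767-93632155, minus strand), which starts each strand together with primase, had 13.43 and 12.57 TPM. Pole, of the leading-strand polymerase epsilon, had 26.7 and 19.9 TPM. Pold1, of the lagging-strand polymerase delta, was far higher at 90.49 and 87.95 TPM. Pola1 was below Pold1 by a log2 TPM ratio of -2.78 ± 0.04, and Pold1 was above Pole by 1.95 ± 0.27 (n = 2 each), all 3 pairs of catalytic genes being separated. On protein-coding transcripts alone the first of these ratios was -2.18 and the second 1.56, with Pold1 at 52.6 and 49.2 TPM.

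Genes of the other polymerase subunits, primase included, were named here after their values were seen. In 6 of 9 cases their mean TPM was above that of Pola1, Pold1 or Pole, whichever belongs to the same polymerase. These are TPM over all transcript models, and protein-coding transcripts alone were not compared for them. The partners of Pola1 were at 50.3 ± 5.92 TPM for Pola2, 61.7 ± 7.43 TPM for the primase subunit Prim1 and 27.3 TPM for Prim2. Pole2 was at 20.99 ± 4.10 TPM beside 23.3 ± 4.81 TPM for Pole, and Pole3 and Pole4 reached 66.9 and 95.1 TPM. Pold2 had a mean of 126.8 TPM and Pold3 of 58.9 TPM beside 89.2 TPM for Pold1, and Pold4 was lowest at 12.1 TPM.

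PCNA, the ring that slides with the polymerases, had one of the most abundant RNAs of the set. Pcna (ENSMUSG00000027342.10, chr2:132249162-132253314, minus strand) had 227.0 TPM in replicate 1 and 183.85 in replicate 2. The clamp loader opens this ring, and its small subunits had 149.26 and 136.66 TPM for Rfc2, 131.73 and 112.52 for Rfc4, 87.4 and 77.6 for Rfc5, and 89.16 and 61.24 for Rfc3. Rfc5 and Rfc3 overlapped between pools, while 5 of the 6 pairs of small subunits were separated. Their highest exceeded their lowest 1.71-fold in replicate 1 and 2.23-fold in replicate 2. The large subunit Rfc1 was listed at 57.12 and 53.65 TPM, and Pcna exceeded it by a log2 TPM ratio of 1.88 ± 0.15. A 485-nt model held 40.3% and 45.6% of the Rfc1 value, and a 4751-nt model, of the length of a full mRNA, held 28.8% and 19.5%. Neither has an entry in annotation release M21, so their class was not read, and the listed level of Rfc1 depends on how reads were shared between models of very different length.

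Replication protein A coats single-stranded DNA at the fork, and its 3 subunit genes were the most even of the complexes in TPM. Rpa3 had 134.95 and 120.48 TPM, Rpa1 105.17 and 121.12 TPM, and Rpa2 108.85 and 90.27 TPM. The highest exceeded the lowest 1.28-fold and 1.34-fold, and 1 of the 3 pairs, Rpa2 and Rpa3, was separated. Rpa1 changed places between the pools, highest in replicate 2 and lowest in replicate 1. The evenness depended on the measure. In expected counts, which grow with transcript length, Rpa1 drew 6625 and 6906 against 2344 and 1887 for Rpa3, whose transcript is shorter. On protein-coding transcripts alone, Rpa1 had 68.1 and 77.9 TPM, and the highest subunit exceeded the lowest 1.97-fold and 1.54-fold.

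The enzymes that finish Okazaki fragments were close to each other. Fen1, the nuclease that trims the flap, had 106.47 and 81.67 TPM, and Lig1, the ligase that seals the nick, had 85.82 and 71.17 TPM. The 2 genes were not separated, since the lower pool of Fen1 lay below the higher pool of Lig1. Pcna, to which both enzymes bind, exceeded Fen1 by a log2 TPM ratio of 1.13 ± 0.06.

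Nucleotide supply held the highest gene of the set. Rrm2 (ENSMUSG00000020649.7, chr12:24708241-24714146, plus strand), the small subunit of ribonucleotide reductase in S phase, had 255.14 and 260.13 TPM. Rrm1, the large subunit, had 143.95 and 142.94 TPM, the smallest relative difference between pools in this group. Rrm2 exceeded Rrm1 by a log2 TPM ratio of 0.84 ± 0.03, though Rrm1 drew more counts, 17069 and 15283 against 15692 and 14455. Rrm2b, a small subunit used outside S phase and after DNA damage, stood at 5.99 and 10.07 TPM, below Rrm2 by 42.6-fold in replicate 1 and 25.8-fold in replicate 2. Tk1, thymidine kinase, had 111.67 and 105.71 TPM. Tyms (ENSMUSG00000025747.8, chr5:30058202-30073617, minus strand), thymidylate synthase, had 212.09 and 145.96 TPM, the widest absolute gap between pools of the 39 genes. Its protein-coding transcript held 18.8 and 14.9 TPM, which placed it below the 67.6 and 59.9 TPM of Tk1 on that measure.

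Several of these levels rest on transcript models that encode no protein. The leading transcript was protein-coding for 35 of the 39 genes by share of TPM and for 37 by share of expected counts, and it was the same transcript in both pools for 38. Protein-coding models held 90% or more of the gene's TPM in both pools for 22 genes and less than 50% for 4, namely Orc4, Gins2, Tyms and Rfc1. For 8 genes, a single transcript was listed. None of these counts was made over all genes. Retained-intron models held 12.0% and 11.4% of the summed TPM of the replication genes, where over all detected protein-coding genes they held 5.58% and 5.30%. By expected counts the shares were 4.56% and 4.31% for the replication genes and 3.34% and 3.10% over all. The median gene differed less: its retained-intron share of TPM was 0.50% and 0.35% for the replication genes, against 0% over all. Its protein-coding share was 93.2% and 93.6%, against 98.2% and 98.3% over all. Short models weigh more in TPM than in counts, because TPM divides by length.

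**Figure D3:**
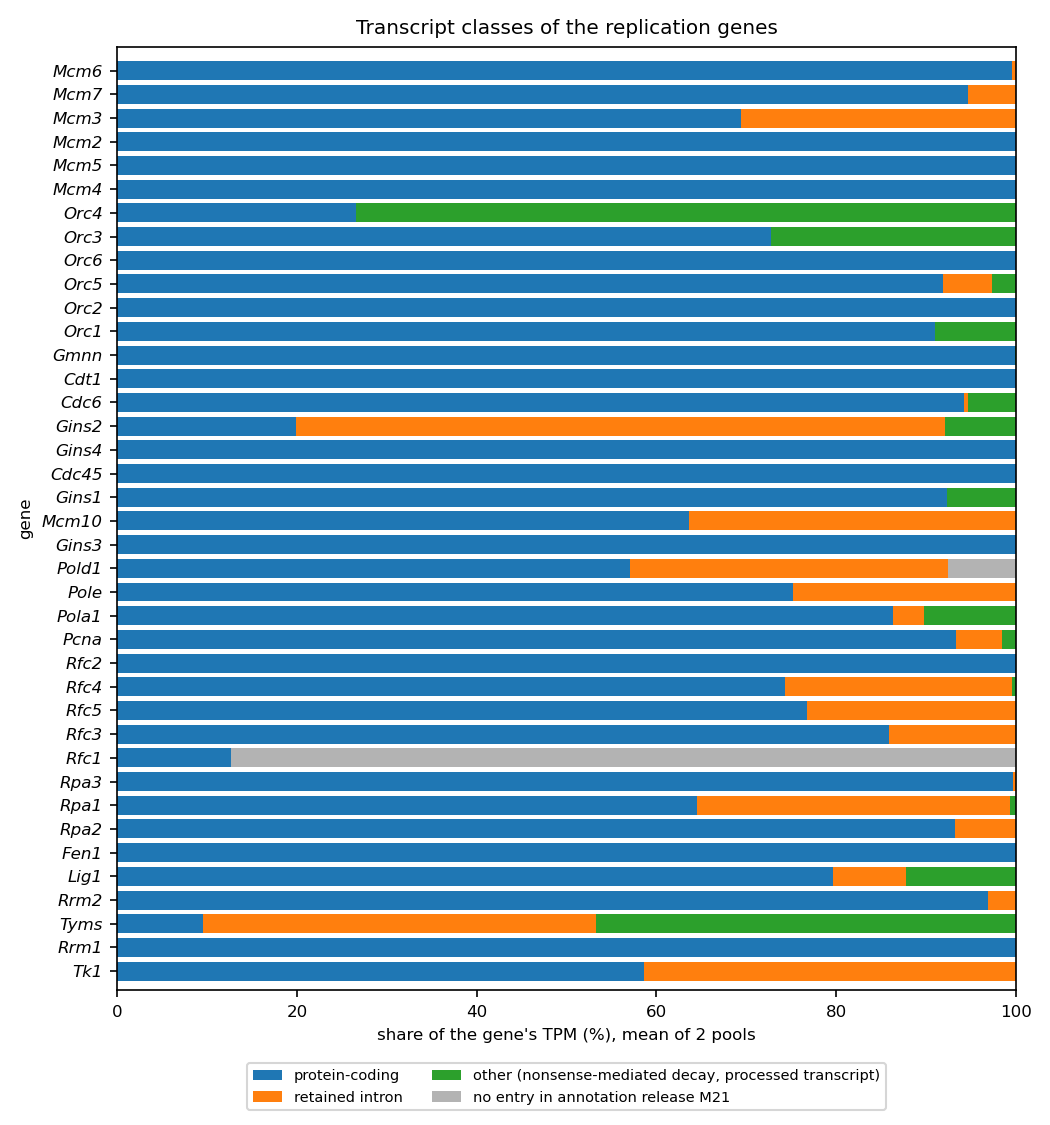
Share of each replication gene's TPM (%, mean of the 2 pools) held by protein-coding, retained-intron, other and unmatched transcript models. Orc4, Gins2, Tyms and Rfc1 have less than 50% in protein-coding models, and 22 genes have 90% or more in both pools.

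The 4 exceptions differed in kind. In Gins2, a 511-nt retained-intron model, Gins2-204, held 72.6% and 68.6% of TPM but 26.6% and 24.7% of counts, and the 3900-nt protein-coding Gins2-201 held 19.3% and 20.5% of TPM and 65.3% and 68.0% of counts. In Orc4 the processed transcript Orc4-212 led with 27.0% and 28.2% of TPM, ahead of the coding Orc4-201 at 15.6% and 16.5%. In Tyms the model Tyms-205, classed for nonsense-mediated decay, held 44.1% and 41.3%, the retained-intron Tyms-202 held 27.6% and 25.4%, and the coding Tyms-201 held 8.86% and 10.2%. Tyms was the gene whose coding share stayed lowest in counts too, at 22.8% and 24.7%. Rfc1 was the case of models without an entry.

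Retained-intron models held 20% or more of TPM in both pools in 7 further genes. How many of all genes pass this cut was not counted. Their shares were 39.4% and 43.4% in Tk1, 35.2% and 37.7% in Mcm10, 35.0% and 36.0% in Pold1, and 34.6% and 35.0% in Rpa1. Mcm3 had 31.9% and 29.3%, Rfc4 25.9% and 24.7%, and Rfc5 26% and 20.5%. Pole had the widest gap between pools, at 18.4% and 31.2%. The deposited TPM intervals of its model Pole-206 overlapped between pools, at 0.77 to 4.83 and 2.02 to 5.64 TPM. Fen1 was the gene whose leading model changed, from Fen1-201 with 45.6% in replicate 1 and 31.7% in replicate 2 to Fen1-202 with 26.3% and 34.8%. In replicate 2 their TPM intervals overlapped, at 14.7 to 30.3 and 22.3 to 32.9 TPM, so the change of leader was not resolved. All 4 Fen1 models are protein-coding. Cdc45 was split between coding models, with Cdc45-201 at 59.8% and 62.8% and Cdc45-202 at 40.0% and 36.5%.

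Some reads may belong to neighbours or copies, and whether counting used strand is not stated in the labels or file headers. Exons of 14 replication genes overlap a gene on the opposite strand. Neither this count nor that of genes with similar copies was made over all genes. The overlap covers 78.8% of the exon bases of Fen1, with the antisense gene Gm10143 at 648.5 and 479.2 counts beside 6898 and 4723 for Fen1. It covers 67.3% for Gins2, with Gse1, and 29.8% for Orc2, with Nif3l1 at 2710.7 and 1818.6 counts beside 2726 and 2209 for Orc2. Pcna has a processed pseudogene, Pcna-ps2, that is 99.2% identical over 781 bases, listed with 67.6 and 55.3 counts beside 9452 and 6931 for Pcna. Rfc5, Cdc6 and Tyms also share stretches of at least 200 bases and 95% identity with genes elsewhere, and these 4 levels carry that uncertainty.

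Between the 2 pools the replication genes differed little. After TMM scaling of the counts, the log2 ratio of replicate 2 to replicate 1 ran from -0.44 for Gins1 to 0.31 for Rpa1, with a median of -0.06. No gene passed 1.5-fold in either direction, where 25.3% of 17547 genes with a mean count of 10 or more did, and 11.2% of the 9672 with a mean count of 500 or more, the depth of every replication gene. None passed 2-fold, against 12.3% of the 17547. The ratios had an SD of 0.17 over the 39 genes, beside 0.83 and 0.45 over those 2 sets of all genes. On this scale the higher pool was replicate 2 for 14 replication genes and replicate 1 for 25, and for 49.5% of all genes it was replicate 2. With spike-in scaling, which moves the median of all genes to 0.30, the direction turned, and 34 of 39 were higher in replicate 2. Deposited TPM and total-count scaling moved that median to -0.11 and -0.13 and left 5 and 4 genes higher in replicate 2. The median of the replication genes relative to all genes was -0.06 with TMM and with spike-ins, and -0.07 with deposited TPM.

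The furthest genes on either side were Gins1 and Rpa1, given here with 95% intervals that cover counting error only. Gins1 (ENSMUSG00000027454.6, chr2:150905400-150931280, plus strand) drew 1363 counts in replicate 1 and 845 in replicate 2, a log2 ratio of -0.44 with an interval of -0.57 to -0.32. Rfc3 drew 3141 and 1975 counts, with a log2 ratio of -0.42. Tyms (-0.35), Mcm10 (-0.33), Orc6 (-0.31) and Fen1 (-0.30) followed in log2 ratio. Rpa1 (ENSMUSG00000000751.9, chr11:75298166-75348324, minus strand) was the furthest in the other direction, with an interval of 0.26 to 0.36. These directions are relative to the TMM centre, and with spike-in scaling Gins1, Rfc3, Tyms, Mcm10 and Orc6 were the 5 genes that stayed below 0. Their log2 ratios were then small, at -0.14, -0.12, -0.05, -0.03 and -0.01.

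By role, the log2 ratios of the MCM helicase ran from -0.13 to 0.13 with TMM, where 3 of 6 genes were below 0, as were 5 of 6 with deposited TPM and 0 of 6 with spike-ins. The 6 clamp and loader genes were all below 0 with TMM (median log2 ratio -0.16) and with deposited TPM (median -0.20), and 1 of the 6 was with spike-ins. With TMM the counting interval left out 0 for 4 of the 6. It held 0 for Rfc2 (-0.08 to 0.02) and Rfc5 (-0.06 to 0.06). Helicase activation had 5 of 6 genes below 0 with TMM, with a median of -0.15, all 6 with deposited TPM and 2 of 6 with spike-ins. Fen1 and Lig1 were both lower in replicate 2 with TMM and deposited TPM, at log2 ratios of -0.30 and -0.28 on the former, and neither was with spike-ins. In nucleotide supply, Tyms was the gene below 0 with TMM, and Rrm2 (0.13) and Rrm1 (0.09) were above it, though deposited TPM put Rrm1 at -0.01. Within complexes, subunits of the same assembly could therefore lie apart, as Rpa1 at 0.31 and Rpa2 at -0.18 in log2 ratio did.

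The list of 48 other replication factors was set beside the 39. Among them are other polymerase and primase subunits, firing factors, fork protection, flap processing, nucleotide enzymes and chromatin assembly. All 48 were detected, with a median of 46.8 TPM. With TMM, 39 of the 48 were higher in replicate 1 and the median log2 ratio was -0.15, which spike-in scaling turned to 0.15. One passed 1.5-fold: Rrm2b, with a log2 ratio of 0.87. Its 3 most abundant genes were Dtymk (thymidylate kinase, 216.8 and 181.0 TPM), Nme1 (a nucleoside diphosphate kinase, 208.4 and 152.5 TPM) and Slbp (the histone mRNA binding protein, 193.4 and 152.0 TPM). In the mitosis list 16 of 28 genes were higher in replicate 1 with TMM and the median log2 ratio was -0.03, or 0.27 with spike-ins. The mitosis genes differed as little as the 39 between pools, with ratios from -0.34 to 0.44, an SD of 0.17 and 0 past 1.5-fold. The most abundant were Ube2c at 457.6 and 419.9 TPM, Cdk1 at 385.4 and 347.1 TPM, and Birc5 at 277.7 and 233.0 TPM. The ratio correlated weakly with transcript length over the 39 genes (Spearman's rho 0.28) and less over 9452 protein-coding genes of a mean count of 500 or more (0.10) or over the 48 other replication factors (0.05), a description across genes of the same 2 libraries.

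**Figure D4:**
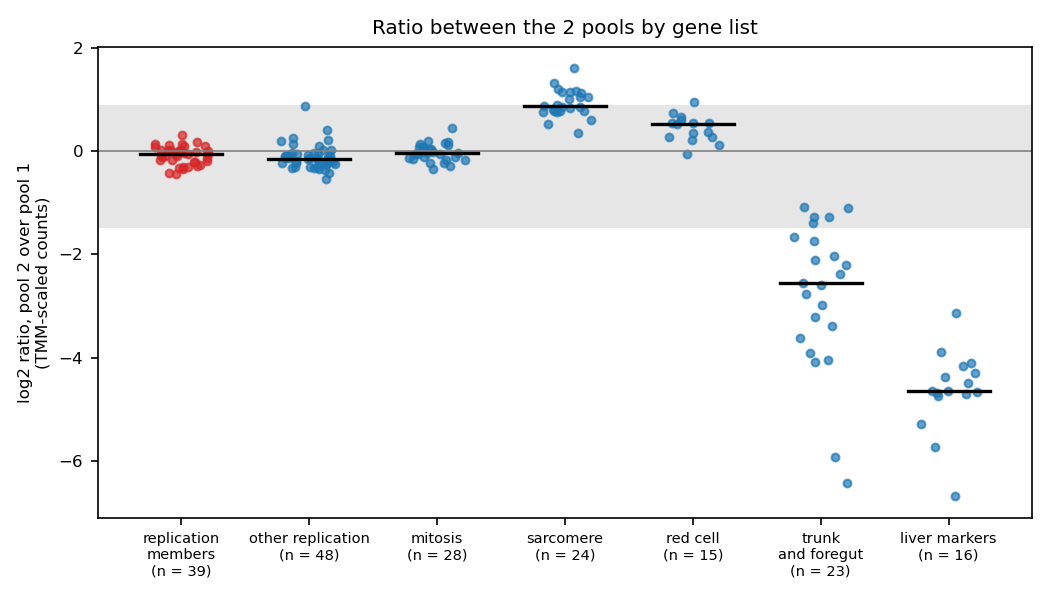
Log2 ratio of replicate 2 to replicate 1 after TMM scaling (y axis) for each gene of 7 lists; bars are list medians, the line is the median and the grey band the 5th to 95th percentile of 17547 genes. The replication genes (red) lie between -0.44 and 0.31 and the mitosis genes between -0.34 and 0.44. The sarcomere, trunk and foregut, and liver lists lie apart from 0, and the red cell list has a median of 0.53.

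The pools themselves were not alike in tissue markers. All 24 sarcomere genes, which mark heart muscle, were detected with none at 0, and they summed to 31150 TPM in replicate 1 and 51550 in replicate 2. Their median log2 ratio was 0.87, with 24 of 24 above 0 under TMM and a median of 1.17 with spike-ins. Red cell genes summed to 40420 and 51450 TPM, with 14 of 15 above 0 and a median log2 ratio of 0.53. The 16 liver genes with enough counts were all below 0, with a median log2 ratio of -4.64 and sums of 1857 and 91.6 TPM for the list of 17, of which Apoc3 was listed at 0 in replicate 2. All 23 trunk and foregut genes were below 0, with a median log2 ratio of -2.55 and sums of 456.0 and 171.2 TPM, and Hoxb9 was listed at 0 in replicate 2. Most of these sums came from the keratin genes Krt8 (174.68 and 76.59 TPM) and Krt18 (156.96 and 68.35 TPM). Their log2 ratios, -1.09 and -1.1, were the nearest to 0 in that list. Markers of liver and of trunk and foregut were thus higher in replicate 1, as the summed TPM of the replication genes was (3908 against 3478). That likeness depended on the scale. With spike-in scaling the median log2 ratio was -4.34 for liver and -2.25 for trunk and foregut, but 0.24 for the replication genes. Many of these markers were near the floor in replicate 2, and some in both pools. Detection, as defined for the replication genes, needs 1 TPM or more in both pools, so low replicate 2 values alone could fail it. It held for 9 of the 17 liver genes and 7 of the 23 trunk and foregut genes. Fgg, for example, had 33.88 TPM in replicate 1 and 0.59 in replicate 2, and Hoxa9 had 4.71 and 0.32 TPM. Apoc3 was low in both, at 0.19 and 0.0 TPM. The median trunk and foregut gene had a mean of 1.44 TPM, and the highest had 125.6 TPM. The marker lists were chosen with earlier results of these data known, so a shared direction within a list is not independent evidence. The part of these tissue markers in the small differences of the replication genes was not tested.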

How the data were processed

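Total RNA of embryonic day 10.5 hearts was measured in 2 libraries, from separate pools of embryos per the labels. The deposited gene and transcript tables give expected counts (estimated reads), TPM, FPKM (not used here), a score-like lower and upper bound of TPM and, for transcripts, the percent of the gene's TPM, on mm10 with annotation release M4, per the file headers and notes. No label or header used here names the aligner, the counting program or the strand setting. The members and lists were chosen with earlier results of these data known, and genes were named by a rule: all 39 members, the 3 most abundant genes of each other list, and both genes of each preset pair. The marker lists of other tissues are given as counts and sums, with a few genes named. The other polymerase and primase subunits, Apoc3, Hoxb9, Fgg, Hoxa9, Krt8 and Krt18 were named after their values were seen.

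Symbols, coordinates and transcript classes came from GENCODE M21, and 884 of 43346 genes had no name. Short features (26248) and spike-ins were left out of gene counts. Spike-ins took 4.23% and 3.13% of counts. Ratios are log2 of TMM-scaled rounded expected counts with a prior count of 0.5 (edgeR 4.0.16, R 4.3.3), and 95% counting intervals cover counting error only. The ratio step was tested on simulated data. Similar sequences were searched with blastn 2.17.0, and the remaining steps used Python 3.11.15. Alternatives covered thresholds, posterior means, counts without division by length, other scalings (DESeq2 1.42.0 size factors, spike-ins, TPM, total count) and each pool alone; a mean count of 500 and protein-coding transcripts were added after the data were seen. Protein sequences were not analysed here.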

Additional observations from a re-analysis of the deposited data

How the results depend on the processing

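Detection held for 39 genes at 5 TPM and for 38 at 10 TPM (Orc1 fell below), and the count of leading coding transcripts was 35 to 37. The median log2 ratio relative to all genes ran from -0.10 to -0.06 over the alternatives run. The share of protein-coding signal (0.450%) was 0.540% in expected counts and 0.419% to 0.480% with 1 pool left out. The highest-to-lowest spread in expected counts was 1.71-fold for MCM2-7, 4.55 for ORC1-6, 3.21 for GINS, 2.30 for RFC1-5 and for RFC2-5, and 3.20 for RPA. In protein-coding transcripts it was 1.90, 6.49, 4.85, 20.4 (RFC1-5, most Rfc1 models having no class) and 1.74 (RPA), and posterior mean TPM gave 1.86 for MCM2-7. The RPA spread was 1.28 to 1.34 with 1 pool left out. Log2 pair ratios changed sign in expected counts for Cdc6/Cdt1 (0.39), Cdc45/Mcm10 (-0.024), Rpa2/Rpa3 (1.15) and Rrm2/Rrm1 (-0.10). They did so in protein-coding transcripts for Rpa1/Rpa2 (-0.34) and Tyms/Tk1 (-1.93), and with 1 pool left out for Cdc6/Cdt1 (-0.253 to 0.068) and Rpa1/Rpa2 (-0.050 to 0.424). Genes higher in replicate 2 numbered 14 with TMM, 5 with deposited TPM, 4 with total count and 34 with spike-ins, which also turned the median to 0.24 and put 1 gene, Rpa1 at 0.61, past 1.5-fold. The share of all genes past 1.5-fold fell to 16.1% at a mean count of 100 and 11.2% at 500. Division by length and the choice of transcripts or genes change the measure itself; other causes were not tested. No paired analysis was possible because the 2 libraries form 1 group.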
